A study of Homo sapiens with 3 samples.

Results

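MIR140 is a single microRNA gene whose hairpin is cut into a pair of mature strands, miR-140-5p (hsa-miR-140-5p) and miR-140-3p (hsa-miR-140-3p). Both strands were followed here in the human melanoma cell line SK-MEL-2, with and without exposure to nonthermal plasma, an ionised gas cool enough to be blown over living cells as a jet. The members are these 2 arms of the 2588 mature miRNAs listed for each library. They were chosen by their counts in the control and 5 min libraries, where the arms part, so all values that set the 5 min library against another are a description of that choice and carry no test. The 3 groups were untreated cells, cells exposed for 3 min and cells exposed for 5 min, each incubated for a further 2 days before the RNA was taken (Day 2). Each group was 1 library of total RNA from 1 cell line, so no value has a replicate check, and the intervals below are exact 95% intervals that cover counting error only. PCR copies of a molecule are counted as separate reads, so these intervals are too narrow as statements about molecules.

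The MIR140 hairpin lies in an intron of WWP2, which encodes a ubiquitin ligase, and is best known from cartilage, where its expression depends on the transcription factor SOX9. In the usual pathway the enzymes Drosha and Dicer cut a hairpin into a duplex of its 2 arms, 1 arm is kept by an Argonaute protein and the other is mostly degraded. The kept arm pairs with messenger RNAs through its seed, bases 2 to 8, so the arms of a hairpin have different targets and their balance decides which targets are addressed. In chondrocytes miR-140-5p is known to repress the histone deacetylase HDAC4 and the aggrecan-cutting protease ADAMTS5. Although the 5p strand was described first, the 3p strand is the more abundant product in many cells.

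The hairpin occupies chr16:69933081-69933180 on the plus strand of GRCh38.p14 in RefSeq, from which all sequences here are taken. In GENCODE release 29, also on GRCh38, the hairpin falls inside an intron (chr16:69931891-69933969) of each of the 7 WWP2 transcripts that span it. In WWP2-202, which with 24 exons has the most of these, this is intron 16. The mature arms are shown as annotated with the seed in capitals, because the seed separates their target sets. Reads that start at a shifted base would have another seed, and how such reads were counted was not given.
miR-140-5p: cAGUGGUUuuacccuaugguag
miR-140-3p: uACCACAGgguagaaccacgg
The whole hairpin is shown with both mature arms in capitals, because both are cut from this same molecule.
MIR140 hairpin: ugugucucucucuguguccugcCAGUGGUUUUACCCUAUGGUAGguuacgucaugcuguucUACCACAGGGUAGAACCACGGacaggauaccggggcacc

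miR-140-5p covers hairpin positions 23 to 44 (chr16:69933103-69933124) and miR-140-3p positions 62 to 82 (chr16:69933142-69933162), with 17 bases of loop side between them. The fold of lowest energy predicted by RNAfold, -54.4 kcal/mol, has 19 base pairs between the arms. In that fold 3 of the first 4 bases of miR-140-5p and all 4 of the first 4 of miR-140-3p are paired, with 2 G-C pairs in each case. miR-140-5p has 22 bases, starts with C and has a GC content of 45.5%, whereas miR-140-3p has 21 bases, starts with U and has a GC content of 57.1%. Neither seed occurs at bases 2 to 8 of any other mature miRNA among the 2370 in the RefSeq table, and the window of each arm shifted by 1 base is no other miRNA's seed. Neither arm therefore belongs to a seed family in that table, which does not show how reads were assigned to the arms.

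The 3 libraries held 1045482 counts for control, 966943 for 3 min and 615645 for 5 min, so the last was the shallowest. The background was formed by the 231 miRNAs that averaged 20 counts or more per library. The 7 melanocytic markers summed to 2616, 2746 and 2130 CPM (counts scaled to library size) in control, 3 min and 5 min. They were represented by miR-204-5p, with 2608, 2535 and 1257 counts in control, 3 min and 5 min, and by the far scarcer miR-211-5p, with 128, 97 and 65. The other 5, miR-506-3p, miR-508-3p, miR-509-3p, miR-513a-5p and miR-514a-3p, were at 0 in every library. The 6 epithelial markers summed to 14.3, 25.0 and 64.4 CPM in that order, from 15, 24 and 40 counts. The 5 muscle markers summed to 14.3, 17.7 and 45.1 CPM, from 15, 17 and 28 counts, and miR-205-5p, miR-133b and miR-206 were at 0 in every library. The 6 blood markers, with miR-223-3p at 0, summed to 13.4, 18.8 and 16.1 CPM. The 2 endothelial ones, both detected, summed to 313, 341 and 375 CPM, and the 5 fibroblast markers to 4114, 5170 and 5735 CPM, nearly all of it miR-199a-3p. miR-145-5p, a defining marker of that list, had at most 2 counts, and the part of these markers in the miR-140 values was not tested. In RNA from a whole culture, fewer cells that make a miRNA and less of it per cell cannot be told apart.

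Both arms were abundant. miR-140-3p had 17048 counts in control, 16365 after 3 min and 12726 after 5 min. As a share of each library this was 1.63% (1.61 to 1.66), 1.69% (1.67 to 1.72) and 2.07% (2.03 to 2.10). The 3p arm thus took a larger part of the shallowest library, and its interval there lay above both others. miR-140-5p had 4968 counts in control, 4565 after 3 min and 2406 after 5 min. Its shares were 0.475% (0.462 to 0.489), 0.472% (0.459 to 0.486) and 0.391% (0.375 to 0.407). The control and 3 min intervals of the 5p arm overlapped and the 5 min interval lay below them.

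Within the library order, miR-140-3p ranked 13th by count in control and after 3 min and 9th after 5 min. Ranks need no scaling between libraries. The 4 miRNAs above it in control and below it after 5 min, found by comparing all miRNAs after their values were seen, were let-7a-5p, let-7c-5p, miR-26a-5p and miR-27a-3p. let-7c-5p, of the let-7 family that represses RAS and HMGA2, shows the exchange: miR-140-3p had 12726 counts to its 11455 after 5 min, and 17048 to its 23690 in control. miR-140-5p ranked 26th in control, 28th after 3 min and 27th after 5 min, so its place was nearly the same. Adapter ligation favours some RNA ends over others, so the counts of different miRNAs in a library are not molar amounts.

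Scaled with TMM factors (the trimmed mean of M-values, which sets the bulk of miRNAs level between libraries), miR-140-5p stood at 4750 CPM in control, 4763 after 3 min and 3876 after 5 min. miR-140-3p stood at 16299, 17073 and 20500 CPM in the same order. The 2 arms together came to 21048, 21836 and 24376 CPM. On this scale the arms together stood higher after 5 min than in control, while their raw counts were 15132 in the shallower 5 min library and 22016 in control. With TMM over all listed miRNAs the log2 ratio of the summed arms was only 0.042 (0.01 to 0.07).

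**Figure D1:**
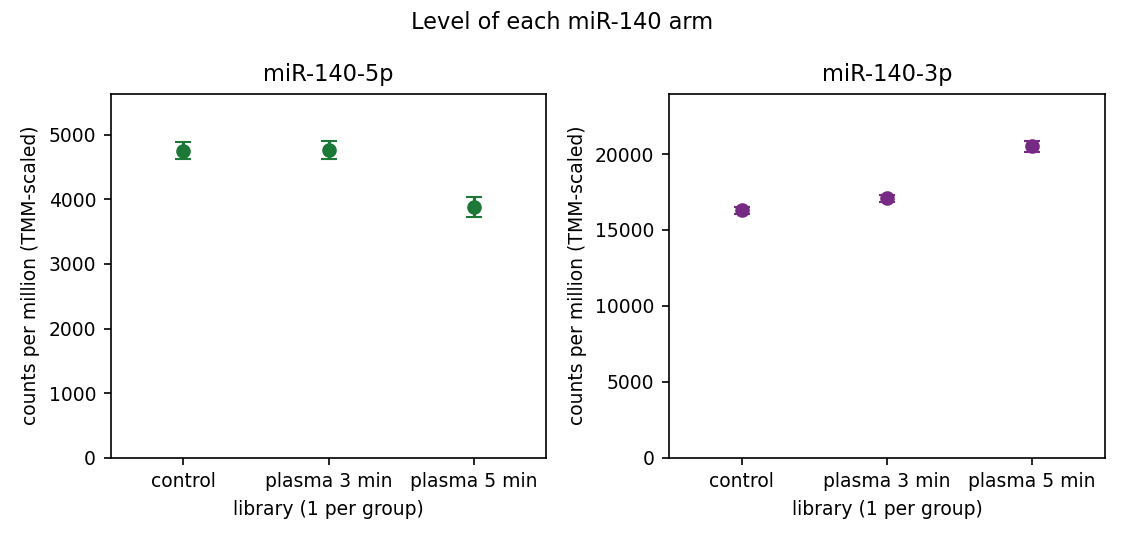
TMM-scaled CPM of miR-140-5p (left) and miR-140-3p (right) in the single library of each group, with exact 95% counting intervals as bars. The 5p arm stood at 3876 CPM after 5 min against 4750 in control, while the 3p arm stood at 20500 after 5 min against 16299 in control.

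After 5 min, miR-140-5p had a log2 ratio to control of -0.29 (-0.36 to -0.22), which is 1.23-fold lower (1.17 to 1.29). miR-140-3p had a log2 ratio of 0.33 (0.30 to 0.36), which is 1.26-fold higher (1.23 to 1.29). Summed, the arms had a log2 ratio of 0.21 (0.18 to 0.24), or 1.16-fold higher (1.13 to 1.18). The intervals of the arms lay on opposite sides of 0. Neither arm reached 1.5-fold, which 29% of the 231 miRNAs did in this comparison, and 123 of the 231 had a larger log2 ratio in size than the 5p arm and 112 than the 3p arm.

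After 3 min the arms had not parted to that extent. This library did not enter the choice of the arms, although the control it is set against did. miR-140-5p had a log2 ratio to control of 0.00 (-0.05 to 0.06) and miR-140-3p one of 0.07 (0.04 to 0.10), a 1.05-fold higher level (1.03 to 1.07). Of the 231 miRNAs, 12.1% were at least 1.5-fold from control at this exposure, and neither arm was. In 2 of the 5 other scalings the 3p interval after 3 min included 0: it had a log2 ratio of 0.01 (-0.02 to 0.04) both with TMM over all listed miRNAs and with TMM over those averaging 100 counts or more.

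The 5 min and 3 min libraries could also be set against each other, with control entering only the scaling, the filter and the choice of the arms. The 5p arm, miR-140-5p, was 1.23-fold lower after 5 min than after 3 min (1.17 to 1.29), and miR-140-3p was 1.20-fold higher (1.17 to 1.23). The order of levels was therefore 5 min below control and 3 min for the 5p arm, whose last pair did not differ beyond counting error. For the 3p arm it was 5 min above 3 min, with 3 min and control close together. At 1.5-fold, which neither arm reached, 21.6% of miRNAs stood apart in this comparison.

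The balance of the arms within a library needs no scaling, since both strands are read from the same library. Of the counts of both arms, miR-140-5p made up 22.6% in control (interval 22.0 to 23.1). The 3 min library had 21.8% (21.3 to 22.4), and the 5 min library had 15.9% (15.3 to 16.5). The ratio of 3p to 5p counts was 3.43 (3.32 to 3.54), 3.58 (3.47 to 3.71) and 5.29 (5.06 to 5.53) in the same order. Control and 3 min had overlapping intervals and the 5 min library stood apart from both. The 5 min library held 15132 counts of the hairpin; at the control share 3415 of them would be 5p, and 2406 were, which is 1009 fewer.

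**Figure D2:**
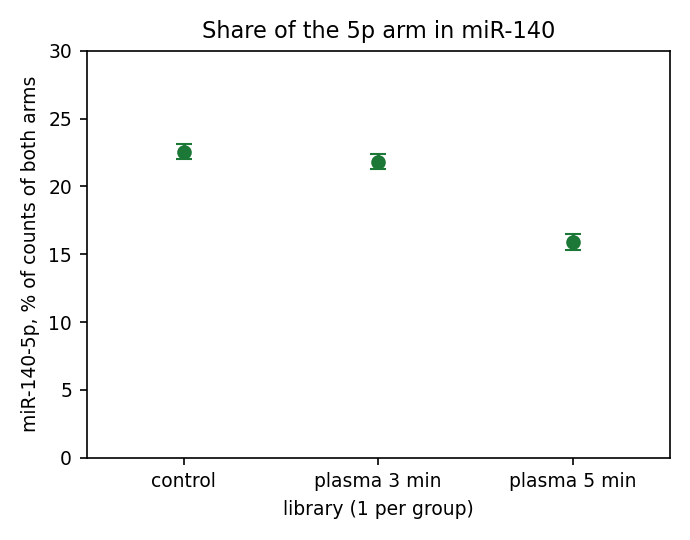
Share of miR-140-5p among the counts of both miR-140 arms, in percent, in the single library of each group, with exact 95% counting intervals. The share was 22.6% in control, 21.8% after 3 min and 15.9% after 5 min.

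Expressed as the log2 ratio of the 5p arm minus that of the 3p arm, which cancels any scaling, the arm difference was -0.62 (-0.70 to -0.55) for 5 min against control, a 1.54-fold lower ratio of 5p to 3p. It was -0.56 (-0.64 to -0.48) for 5 min against 3 min and -0.06 (-0.13 to 0.00) for 3 min against control. Each pair of these values shares a library, so they are not independent of each other.

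Scaling cannot remove the arm difference but divides it between the strands. Over the 6 scalings tried, miR-140-5p had a log2 ratio after 5 min of between -0.46 and -0.28 against control, and miR-140-3p one of between 0.16 and 0.34. The 5p arm was lower and the 3p arm higher in each of the 6. In the scaling used here the 5p arm carried 47.0% of the difference, and with TMM over all listed miRNAs it carried 74.2%. On the linear scale, the 5p arm differed by -874 CPM between 5 min and control and the 3p arm by 4202 CPM, and the size of the 3p difference was between 1.48 and 5.17 times that of the 5p difference in the 6 scalings.

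**Figure D3:**
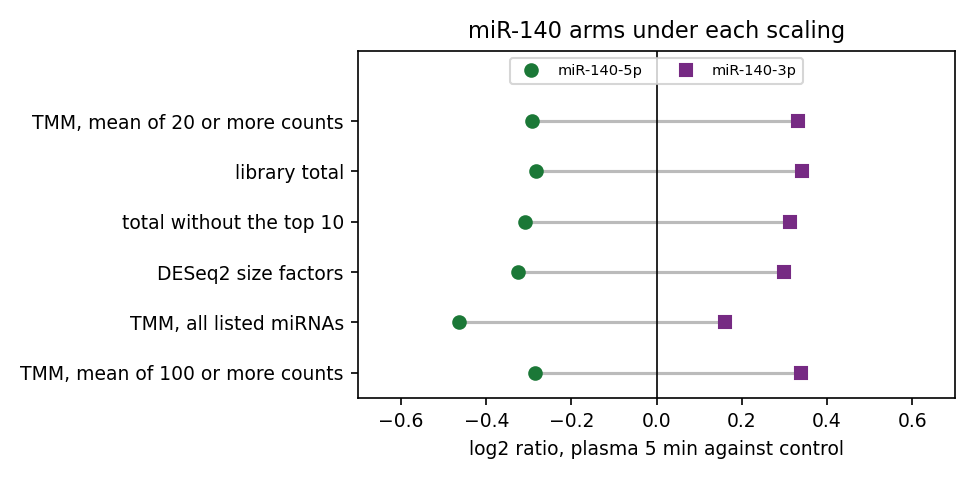
Log2 ratios of miR-140-5p (circles) and miR-140-3p (squares) for plasma 5 min against control under 6 scalings, joined by a line whose length is the arm difference. The 5p arm lies between -0.46 and -0.28 and the 3p arm between 0.16 and 0.34, and the distance of 0.62 between them is the same in each.

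To see where MIR140 lay among other hairpins, miRNAs listed as 5p and 3p of the same name were paired. Both arms averaged 20 counts or more for 49 hairpins, of which 22 had the 3p arm as the more abundant one, as MIR140 did, and 27 the 5p arm. MIR140 was 6th of the 49 by summed control counts. Its minor arm was relatively frequent: at 22.6% in control it exceeded the minor share of 37 other hairpins, and the median minor share of the 49 was 9.66%. The large counts of both arms gave it the narrowest interval of the 49 for the arm difference, 0.16 on the log2 scale after 5 min against a median of 0.95.

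After 5 min, the ratio of 5p to 3p was at least 1.5-fold lower than in control for 7 of the 49 hairpins (14.3%), MIR140 among them, and at least 1.5-fold higher for 9 (18.4%). MIR140 was the 14th of the 49 in size of arm difference and the 7th from the lowest. Just beyond it stood miR-27a at -0.71 (-0.86 to -0.57), and just short of 1.5-fold stood miR-3184 at -0.58 (-0.97 to -0.19). The median arm difference of all 49 was 0.05, and 30 of the 49 intervals included 0. After 3 min 4 of the 49 (8.16%) were at least 1.5-fold from control in either direction, and MIR140 was 44th in size. miR-3184 lies antisense to miR-423, so its arms can hold reads of that hairpin if strand was ignored. miR-27a and miR-3184 were named for their place beside MIR140 after their values were seen.

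**Figure D4:**
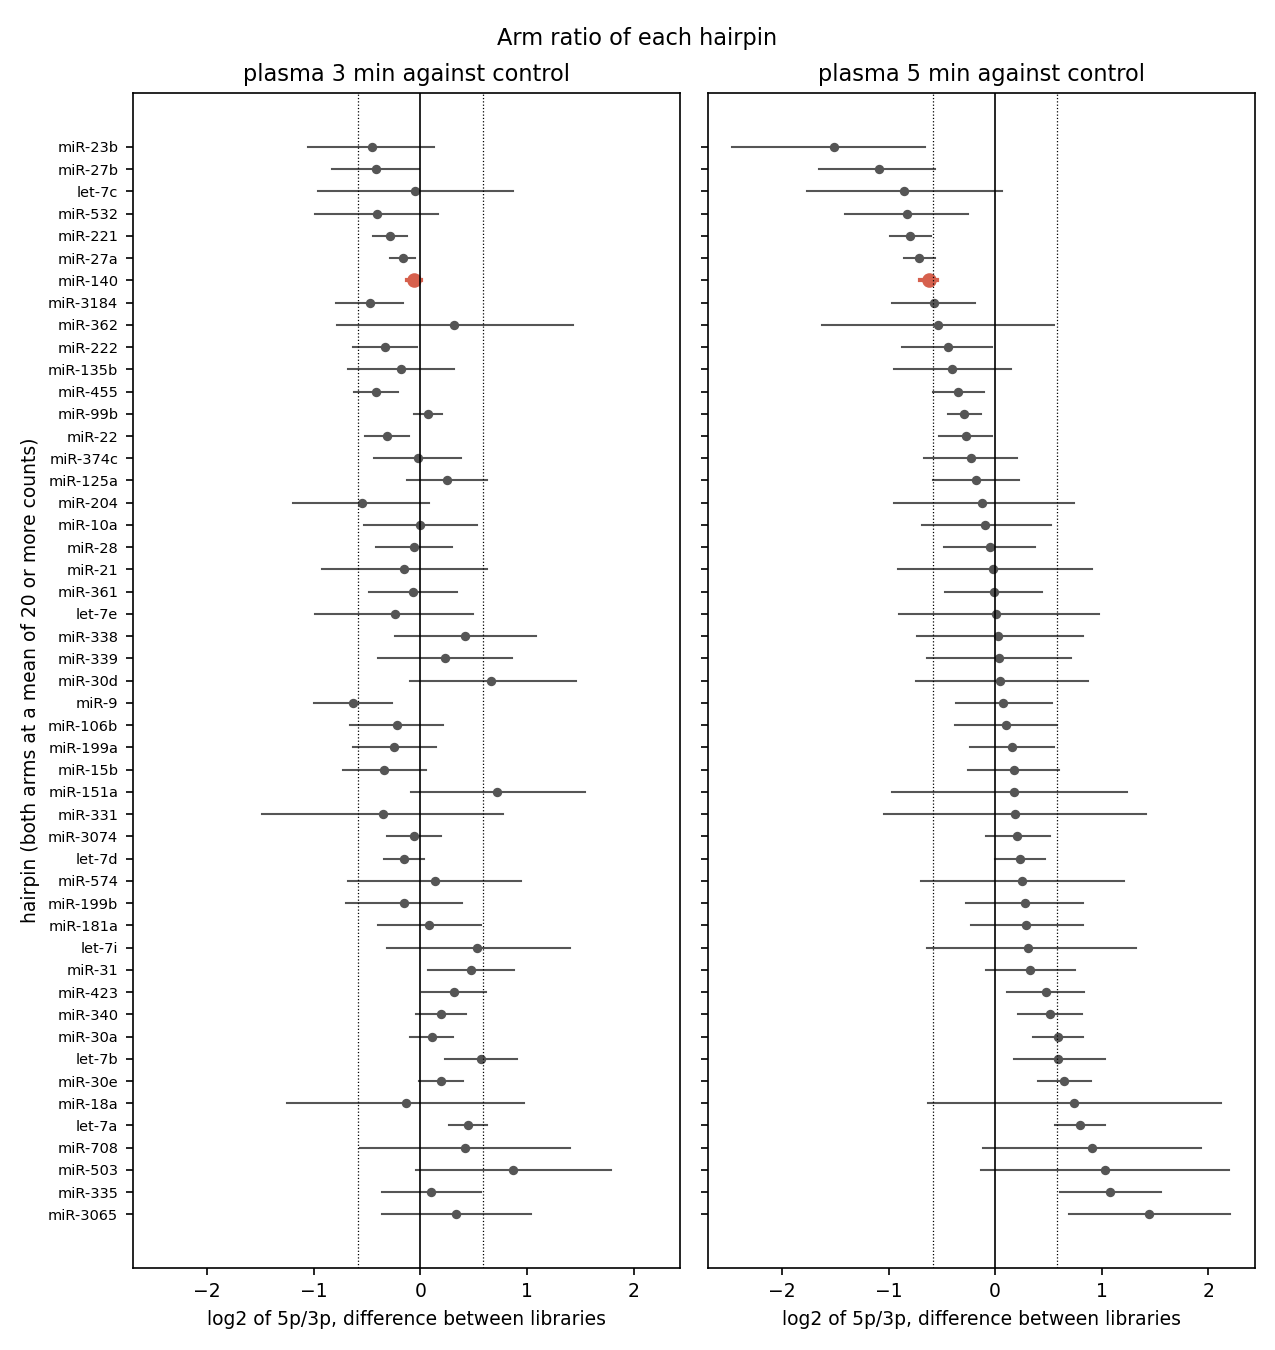
Difference between libraries in the log2 ratio of 5p to 3p counts, for 3 min against control (left) and 5 min against control (right), for the 49 hairpins with both arms measured, ordered by the 5 min value, with exact 95% counting intervals; dotted lines mark 1.5-fold. miR-140 (red) is at -0.06 after 3 min and at -0.62 after 5 min and has the narrowest interval of the 49.

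Hairpins whose arms had intervals on opposite sides of 0 were fewer. After 5 min 4 of the 49 (8.16%) had the 5p arm below and the 3p arm above control: miR-140, miR-221, miR-27a and miR-27b. In the 5 other scalings this held for miR-140 and miR-221 in 5, for miR-27b in 4 and for miR-27a in 2. TMM over all listed miRNAs moved every 5 min log2 ratio to control by -0.17, which put the 3p arms of miR-27a and miR-27b at -0.12 and -0.0048. The reverse held for 1 (2.04%), miR-335, with log2 ratios of 0.86 (0.43 to 1.29) for the 5p arm and -0.22 (-0.41 to -0.03) for the 3p arm, in 5 of the 5 other scalings too. These names follow from the rule of opposite intervals, which was set after the values were seen. After 3 min the 5p arm lay below and the 3p arm above control for miR-9 and miR-455 (4.08%) and the other way round for let-7a (2.04%), and the arms of MIR140 did neither. Of these, miR-9 held in 5 of the 5 other scalings and miR-455 and let-7a in 3, since an interval of each included 0 with TMM over all listed miRNAs and with TMM over those averaging 100 counts or more.

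**Figure D5:**
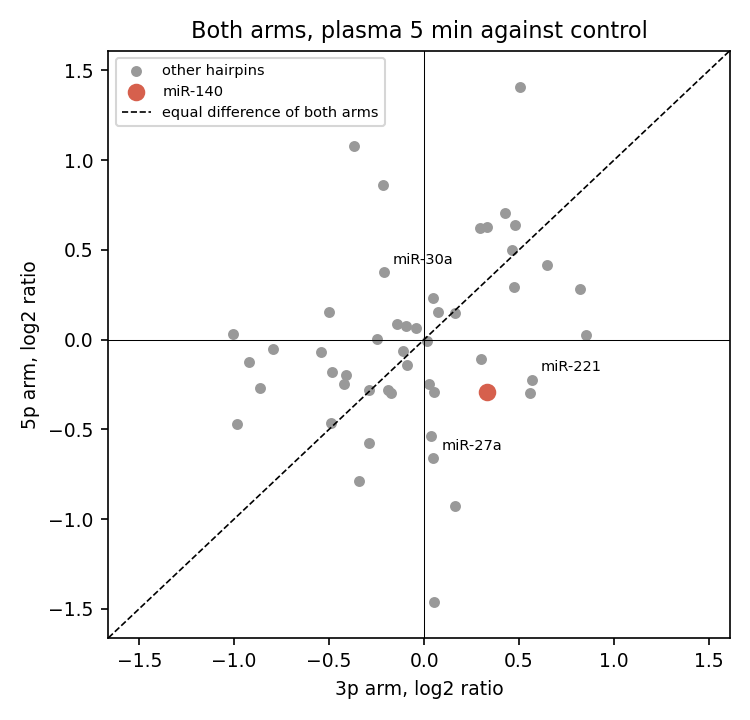
Log2 ratio of the 5p arm against that of the 3p arm for plasma 5 min against control, 1 point per hairpin with both arms measured. miR-140 (red) lies at -0.29 for 5p and 0.33 for 3p, in the lower right part with miR-221 and miR-27a, away from the dashed line on which both arms differ equally.

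The 5 hairpins with the firmest lower ratio of 5p to 3p after 5 min were taken by the counting bound nearest to no difference. They were miR-23b, miR-221, miR-27a, miR-27b and miR-140, and all 5 have the 3p arm as the major product. So do 22 of the 49 hairpins, and 5 of the 7 whose ratio was at least 1.5-fold lower. This bound covers counting error only and favours hairpins with many counts. MIR140 is among the 5 by it and was 14th of the 49 in size. miR-221-3p represses the cell-cycle inhibitor CDKN1B, and miR-27a and miR-27b are products of the paired miR-23, miR-27 and miR-24 clusters. miR-23b-5p had 14 counts after 5 min against 65 in control, and its hairpin's arm difference was -1.51 (-2.47 to -0.66). miR-221-5p had 342 counts after 5 min against 673 in control, with an arm difference of -0.79 (-0.99 to -0.60). miR-27b-5p had 39 counts after 5 min against 125 in control, with an arm difference of -1.09 (-1.65 to -0.56). miR-23b and miR-27b come from the same primary transcript and are not independent. Among these 5, MIR140 had the most counts of the minor arm, 2406 after 5 min against 4968 in control.

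miR-27a was the only other hairpin whose arms both averaged 1000 counts or more. Counts of its 5p arm were 1491 in control, 1207 after 3 min and 559 after 5 min, and those of its 3p arm were 18427, 16755 and 11307. The 5p share was 7.49%, 6.72% and 4.71% in that order, so the ratio of 5p to 3p was 1.54-fold lower for MIR140 and 1.64-fold lower for miR-27a after 5 min than in control. The strands contributed differently: the log2 ratio of miR-27a-5p was -0.66 (-0.81 to -0.52) after 5 min, while miR-27a-3p was at 0.05 (0.01 to 0.08; -0.12 with TMM over all listed miRNAs), a value near the 0.05 median of all miRNAs. The near-identical miR-27b-3p can share reads with miR-27a-3p, so the separate level of miR-27a-3p is uncertain. The arms of miR-27a (chromosome 19, minus strand, GRCh38.p14) are shown for comparison, with seeds in capitals.
miR-27a-5p: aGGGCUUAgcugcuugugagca
miR-27a-3p: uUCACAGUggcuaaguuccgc
Neither seed is that of a miR-140 arm. The 3p arms of miR-140, miR-27a and miR-27b start with U, whereas miR-23b-3p and miR-221-3p start with A. The 9 hairpins whose 3p arm starts with U, of 42 with both mature sequences, had a median arm difference of 0.03 after 5 min. It was below 0 in 4 of these 9 and at least 1.5-fold lower in 3, against 7 of all 49 hairpins (14.3%). The 6 hairpins whose 5p arm starts with C, MIR140 included, had a median of -0.37. Of these 6, the arm difference was below 0 in 4 and at least 1.5-fold lower in 2. These classes are small, and the part of the first base was not tested.

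In the other direction the 5 firmest hairpins after 5 min were miR-3065, miR-335, let-7a, miR-30e and miR-30a, with arm differences of 1.45 (0.69 to 2.20), 1.08 (0.61 to 1.55), 0.79 (0.57 to 1.03), 0.65 (0.40 to 0.90) and 0.59 (0.35 to 0.82). miR-3065 lies antisense to miR-338, and let-7 members are close copies of each other, so their counts can hold reads of these partners. For let-7a and miR-30a the 5p arm is the major product. Relative to the major arm, the minor arm was lower after 5 min in 26 of the 49 hairpins, and in 10 of the 22 with a major 3p arm. Of the 19 hairpins whose intervals lay clear of 0, the minor arm was the lower one in 11 and the major arm in 8. These were not spread evenly over abundance: the minor arm was lower in 10 and the major arm in 2 of the 25 hairpins with the most control counts, against 1 and 6 of the other 24, a split made after the values were seen. Of the 42 hairpins with both mature sequences in RefSeq, MIR140 was the only one with a 5p arm starting with C and a 3p arm starting with U.

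The 3 hairpins above MIR140 in summed control counts were miR-27b, miR-221 and let-7c, and the 3 below it miR-27a, let-7a and miR-9. let-7c, with 21 counts of its 3p arm after 5 min and 24 in control, had an arm difference of -0.86 (-1.76 to 0.06), an interval that included 0. miR-9, an abundant neural miRNA, was at 0.08 (-0.37 to 0.53) after 5 min and at -0.63 (-1.002 to -0.27) after 3 min. The 4 of these 6 whose intervals lay clear of 0 after 5 min, miR-27b, miR-221, miR-27a and let-7a, all had the minor arm lower relative to the major one, as MIR140 did. Of the 25 hairpins with the most control counts, these included, 12 had intervals clear of 0, and 10 of the 12 had the minor arm lower. The agreement of the 4 is therefore close to that share.

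The miRNAs whose pair of log2 ratios to control, after 3 min and after 5 min, lay nearest to those of each arm were sought among the 130 other miRNAs averaging 100 counts or more, by Euclidean distance over 2 comparisons that share control. Nearest to miR-140-5p were let-7b-5p, miR-22-5p, let-7e-5p, miR-204-5p and miR-30a-3p, at distances of 0.03 to 0.08. miR-204-5p, a miRNA of pigment cells, had log2 ratios of 0.09 after 3 min and -0.30 after 5 min. Nearest to miR-140-3p were miR-23a-3p, miR-152-3p, miR-30a-5p, miR-29b-3p and miR-181b-5p, at distances of 0.03 to 0.08. miR-23a-3p had log2 ratios of 0.08 and 0.36, and miR-30a-5p of 0.10 and 0.38. By these point values the arms of miR-30a stood each beside a different arm of miR-140. Its minor 3p arm lay near the minor 5p arm of miR-140 and its major 5p arm near the major 3p arm. The log2 ratio of miR-30a-3p after 5 min was -0.21 (-0.43 to 0.01), an interval that includes 0 and is wider than the distances given. The order of the nearest miRNAs is therefore uncertain. The arms of miR-140 lay 0.63 apart, with miR-140-3p in 91st place from miR-140-5p.

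miRNAs linked to cartilage or to SOX9 were taken as a list of 10, of which 6 averaged 20 counts or more. None of the 6 reached 1.5-fold from control after either exposure, which 29% of the 231 miRNAs did after 5 min and 12.1% after 3 min, so with 6 members this count says little. Their median log2 ratio was 0.32 after 5 min and 0.25 after 3 min, against 0.05 for all 231 miRNAs in each case. This difference was not tested. It rests on 6 members, of which miR-455-5p and miR-455-3p are arms of 1 hairpin, and the list was chosen with earlier results of these data known. miR-455-5p and miR-455-3p, from a collagen gene that cartilage also expresses, had log2 ratios after 5 min of -0.29 (-0.38 to -0.21) and 0.05 (-0.17 to 0.27). The others after 5 min were miR-146a-5p, an NF-kB target, at 0.54 (0.43 to 0.66), miR-101-3p at 0.53 (0.38 to 0.67), miR-199a-3p at 0.48 (0.41 to 0.55) and miR-27b-3p at 0.16 (0.14 to 0.19). The -0.17 shift noted for TMM over all listed miRNAs turned miR-455-3p and miR-27b-3p to below 0 and left the signs of the other 4. miR-675-5p, miR-675-3p and miR-124-3p were at 0 in every library, and miR-145-5p had 1 count in control, 2 after 3 min and 0 after 5 min. By library total, without TMM factors, a count of 0 allows up to 2.87 CPM in control, 3.10 after 3 min and 4.87 after 5 min.

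The nearest other hairpin on chromosome 16 in RefSeq with counts here was MIR328, 2731 kb away (chr16:67202321-67202395, minus strand). Counts of miR-328-3p were 1645 in control, 1561 after 3 min and 543 after 5 min, and miR-328-5p had 0 in every library, so no arm balance could be given for it.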

How the data were processed

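Small RNA was sequenced from 3 cultures of SK-MEL-2 cells. Per the labels' protocols, the RNA came from a Trizol extraction and the libraries from a NEBNext kit for small RNA. The authors deposited whole-number read counts per mature miRNA, not normalized, for each library. Bowtie2, bedtools and edgeR were used per the submitters' processing notes; their roles, the genome build, the annotation and the handling of reads that end a few bases from the annotated arm were not given in the sources used here, so shifted ends of an arm are either inside its count or lost.

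TMM factors were computed with edgeR 4.0.16 in R 4.3.3 over the 231 miRNAs averaging 20 counts or more. Ratios have exact Clopper-Pearson 95% intervals from the binomial split of counts; arm differences have the conditional exact interval of the odds ratio (scipy 1.17.1, Python 3.11.15). No test was possible with 1 library per group. Folding used RNAfold 2.7.2. Ratio and arm steps were tested on simulated Poisson counts. These hold counting error only, so they cannot show how the intervals perform under PCR copies or differences between cultures. By library total, without TMM factors, a single count was worth 0.956, 1.03 and 1.62 CPM in control, 3 min and 5 min.

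Named miRNAs were both arms, the 5 nearest patterns per arm, the 5 firmest hairpins per direction, the 3 hairpins above and below in control counts, miRNAs sharing a seed, and the cartilage list; others are marked. Members and lists were chosen with earlier results of these data known. DESeq2 1.42.0 size factors were 1 alternative.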

Additional observations from a re-analysis of the deposited data

Results flagged for a closer look

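miR-140-5p had log2 ratios to control of opposite sign after the exposures, -0.29 after 5 min and 0.0040 after 3 min. With 1 library per group this difference was not tested. The 3 min value had an interval of -0.05 to 0.06, and its sign was negative in each of the 5 other scalings, down to -0.06.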

How the results depend on the processing

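Both arms kept their direction after 5 min, against control and against 3 min, in all 6 scalings. Library totals, with or without the 10 most abundant miRNAs, left the log2 ratios of miR-140 within their intervals, but the 3 min ratio of miR-140-5p, 0.0040, became -0.0094 with the totals and -0.015 without those 10, where that of both arms was 0.034 against 0.053. With DESeq2 size factors the 3 min log2 ratios to control were 0.034 for miR-140-3p and 0.020 for both arms, and the 5 min ratio of both arms was 0.18. With TMM over all listed miRNAs, which moved the median of all miRNAs after 5 min to -0.12, the 5p, 3p and summed log2 ratios were -0.46, 0.16 and 0.042 for 5 min against control and -0.41, 0.15 and 0.047 for 5 min against 3 min; for 3 min against control the 3p and summed ones were 0.0094 and -0.0046. That scaling gave 4, 16 and 4 miRNAs at least 2-fold lower in 3 min against control, 5 min against control and 5 min against 3 min, and 31 at least 1.5-fold lower in the last. With TMM recomputed over those averaging 100 counts or more, the 3 min log2 ratios to control were -0.056, 0.0075 and -0.0065 for 5p, 3p and both, and the 3p and summed ratios of 5 min against 3 min were 0.33 and 0.23. That filter with the factors kept left 1 higher and 1 lower miRNA at 2-fold after 3 min, 7 and 3 after 5 min, and 5 and 0 for 5 min against 3 min; at 1.5-fold it left 4 and 2, 15 and 12, and 6 and 8. With TMM recomputed as well, an alternative added after seeing the data, the 2-fold counts were equal to these (1 and 1, 7 and 3, 5 and 0) and those at 1.5-fold were 4 and 3, 15 and 12, and 8 and 5. Without a filter these were 54 and 26, 119 and 28, and 114 and 25 at 2-fold, and 86 and 63, 194 and 66, and 202 and 62 at 1.5-fold. For the hairpin counts, both arms at a mean of 100 left 24 hairpins: after 3 min 0 were at least 1.5-fold higher in 5p over 3p, after 5 min 4 were higher and 3 lower at 1.5-fold and 0 and 0 at 2-fold, and for 5 min against 3 min 1 was higher and 0 lower at 1.5-fold and 0 and 0 at 2-fold. With 10 counts required in both libraries, 1 of 61 hairpins was higher and 1 lower after 3 min at 2-fold, and 5 and 3 at 1.5-fold. For 5 min against 3 min, 2 of 54 were higher at 2-fold. The 38 hairpins with arms unique in RefSeq gave 1 higher and 0 lower after 3 min at 1.5-fold. Adding 0.5 to each count left the arm differences of miR-140 within their intervals. Where only the filter changed, fewer or more features were tested; for the scalings, recomputed factors included, the cause was not tested. The opposite intervals of arms under the other scalings were also added after seeing the data. No paired analysis was possible because each group holds 1 library, and for the same reason no replicate could be left out. Depth limited minor arms with few counts, and miR-140 least of the 49 hairpins.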
